A study of Mus musculus with 6 samples.

Results

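The genes described are 10 genes of the smooth muscle contractile apparatus, several of which also mark myofibroblasts, taken from a table of 24061 gene rows measured by RNA sequencing of whole mouse lung. They were chosen by name, as Acta2, Actg2, Myh11, Myl9, Mylk, Tagln, Cnn1, Lmod1, Synpo2 and Des, and all 10 had a row and passed the filter on low counts. There were 3 lungs of genotype CCSP/TGFalpha and 3 control lungs of genotype CCSP/-. The CCSP element and 3 weeks of doxycycline were common to both groups. In models of this kind the promoter of the club cell secretory protein (CCSP) directs a doxycycline-dependent activator to lung epithelium, so the transgene is driven in epithelial cells and not in muscle. No label states age, strain or whether the lungs of a group came from separate animals. The p-values therefore reflect the spread among these libraries, part of which may be technical.

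Smooth muscle cells contract when calcium activates myosin light chain kinase, which phosphorylates the regulatory light chain of myosin and lets myosin pull on actin filaments. In the lung such cells surround airways and vessels, and fibroblasts that turn on part of the same gene set, above all the actin gene Acta2, are called myofibroblasts and are a known feature of fibrotic tissue. Many of these genes are controlled by serum response factor (SRF) with its partners myocardin and the myocardin-related factors, which act at a DNA element called the CArG box.

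Actin genes are close relatives in sequence, which bears on whether a read can be assigned to one of them. The first 60 coding bases of the smooth muscle actins Acta2 and Actg2 and of the striated muscle actins Acta1 and Actc1 are shown for that reason, with capitals at bases that differ from Acta2 in a global alignment (GENCODE M21 transcripts, GRCm38). Actg2 has 1128 coding bases against 1131 in Acta2, and the alignment gap near its start is not printed. Its letters after the gap therefore do not stand under their Acta2 partners.
Acta2: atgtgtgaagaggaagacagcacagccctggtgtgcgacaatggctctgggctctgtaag
Actg2: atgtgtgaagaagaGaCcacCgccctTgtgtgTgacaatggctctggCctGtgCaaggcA
Acta1: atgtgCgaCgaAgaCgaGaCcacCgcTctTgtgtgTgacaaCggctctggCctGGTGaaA
Actc1: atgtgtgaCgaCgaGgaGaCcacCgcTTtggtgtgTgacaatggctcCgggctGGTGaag
Over the whole coding sequence Actg2 was 84.2% identical to Acta2, Acta1 was 85.4% and Actc1 was 82.6%. Of 1986 windows of 50 bases in the Acta2 transcript 7 (0.352%) occurred in a transcript of another gene. No such window was shared for Actg2, Myl9, Mylk, Tagln, Cnn1, Lmod1, Synpo2 or Des, and 0.406% were for Myh11.

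Promoters of 7 of the 10 genes, without Tagln, Myh11 and Actg2, were matched in the RefSeq table (GRCm38.p6). Those of Acta2 and Myl9 are shown because they held a CArG box or a close variant before the transcription start used for the promoter. The Acta2 stretch lies inside the gene's full span (34240336 to 34255585). Its boxes therefore precede that promoter's start but not the outermost start of the gene. Capitals mark the boxes, counted as such with at most 1 of the 6 core bases not A or T.
Acta2, chr19:34255374-34255482, minus strand: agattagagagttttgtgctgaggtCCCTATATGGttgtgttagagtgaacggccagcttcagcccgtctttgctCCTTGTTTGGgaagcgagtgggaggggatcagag
Myl9, chr2:156775278-156775399, plus strand: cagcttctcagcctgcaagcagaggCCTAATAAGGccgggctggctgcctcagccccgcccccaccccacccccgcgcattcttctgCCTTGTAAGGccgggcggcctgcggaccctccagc
With this allowance 2 of the 7 promoters of 300 bases held a box, against 9.998% of 27025 genes with 1 promoter each. With no substitution allowed it was 1 of the 7, in Myl9, against 1.57% of all genes. The element reads the same on both strands, and a match describes letters in this window.

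Gene counts per library summed to between 23317747 and 24914322 in CCSP/TGFalpha lungs and between 21479006 and 24837861 in CCSP/- lungs. The mouse Tgfa row did not separate the groups (27.5 ± 2.09 CPM in CCSP/TGFalpha lungs and 25.8 ± 2.94 CPM in CCSP/- lungs; SD, n = 3 each), and it would hold transgene reads only as far as the transgene matches the mouse gene. CPM is a gene's count scaled to library size. Lung markers such as Sftpc and Ager were present in every library. Both libraries numbered 1 stood apart: 12 skeletal muscle markers, such as the fast myosins Myh1 and Myh4, summed to 2739 CPM in CCSP/TGFalpha replicate 1 and 1570 CPM in CCSP/- replicate 1, and to between 56.0 and 72.4 CPM in the other 4 libraries. Each of the 10 genes is therefore also given without these 2 libraries. CCSP/- replicate 3 was low for several mesothelial markers, given below. It was the highest library for 5 of the 10 genes, Myh11 among them, and CCSP/TGFalpha replicate 1 was for the other 5. In whole lung, fewer cells of a type and less RNA per cell cannot be told apart.

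Among the 10 contractile genes, Tagln rose 4.01-fold in CCSP/TGFalpha lungs, Myh11 fell to 0.344 of its level in CCSP/- lungs, and the other 8 did not pass the test. The test was edgeR's quasi-likelihood test over 16089 genes with Benjamini-Hochberg adjustment and a threshold of 0.05. The 2 calls among 10 genes stand beside 8.33% called over all genes, and 1 call in each direction beside 5.03% called higher and 3.29% called lower, so the number of calls is no result about the set. The median log2 fold change of the 10 genes was -0.11, against 0.01 over all genes tested. The 3 libraries of one group lay wholly above or below those of the other for the same 2 genes, a pattern that held for 33.2% of all genes. The 2 calls had opposite directions, and the genes are described by role.

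**Figure D1:**
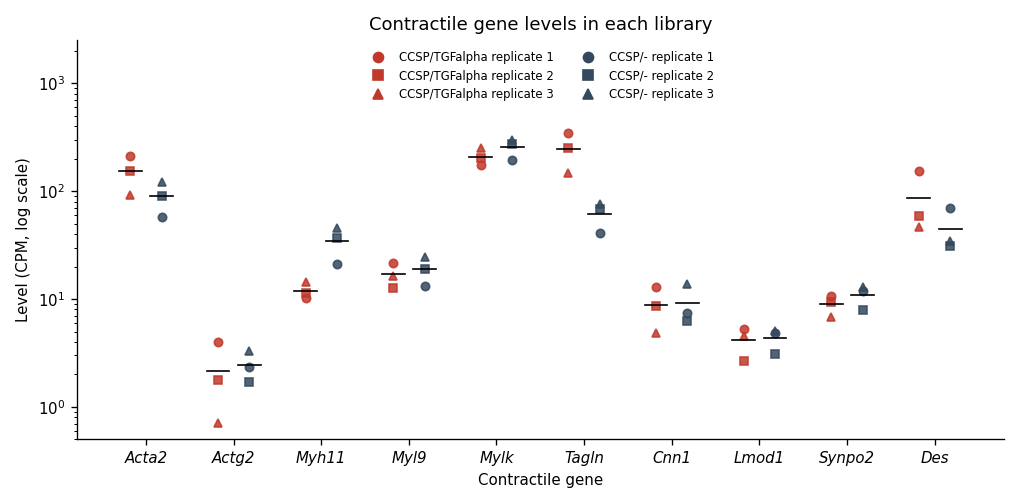
Level of each contractile gene in each library, in CPM on a log scale, with CCSP/TGFalpha libraries left of CCSP/- libraries for each gene, marker shapes for replicates and black bars for group means. The groups are separate for Tagln (higher in CCSP/TGFalpha) and Myh11 (lower in CCSP/TGFalpha) and overlap for the other 8 genes.

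Acta2 encodes alpha smooth muscle actin, the usual marker of myofibroblasts (gene ID 11475; chromosome 19, 34240336 to 34255585). Its level was 212, 153 and 92.8 CPM in CCSP/TGFalpha replicates 1 to 3, and 57.7, 90.0 and 121 CPM in CCSP/- replicates 1 to 3. The groups overlapped, since CCSP/TGFalpha replicate 3 lay below CCSP/- replicate 3. The log2 fold change was 0.77 ± 0.34 (SE), with a 95% interval from -0.01 to 1.55, and it did not pass (edgeR adjusted p = 0.193). Without the 2 libraries with skeletal muscle transcripts the value was 0.21 (edgeR adjusted p = 0.727).

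Actg2 encodes gamma smooth muscle actin, the actin of gut and bladder muscle (gene ID 11468; chromosome 6, 83512909 to 83536251). It was low throughout, with 4.03, 1.77 and 0.712 CPM in CCSP/TGFalpha lungs and 2.33, 1.69 and 3.28 CPM in CCSP/- lungs, from 17 to 95 counts per library. The CCSP/TGFalpha libraries held both the highest and the lowest value, so the groups overlapped fully. Its log2 fold change of -0.17 had an interval from -1.54 to 1.21 (edgeR adjusted p = 0.883), and without both replicates 1 it was -1.01 (edgeR adjusted p = 0.440). Of all counts on the 6 actin genes, Acta2 took 2.43 ± 0.801% in CCSP/TGFalpha lungs and 1.55 ± 0.575% in CCSP/- lungs (SD, n = 3 each). That difference did not pass (exact 2-sided permutation test, p = 0.3, adjusted p = 0.7 over 6 shares, where 3 against 3 cannot go below 0.1). The cytoplasmic actins Actb and Actg1 took most of the counts in every library, with Actb at 59.9 to 70.7% in CCSP/TGFalpha lungs and 64.0 to 71.4% in CCSP/- lungs. Of their 50-base windows, 14.2% for Actb and 56.7% for Actg1 occurred in transcripts of other genes, which bears on these shares. Acta1 took 11.4% in CCSP/TGFalpha replicate 1 and 7.58% in CCSP/- replicate 1, where Actb was lowest, and at most 1.05% in the other libraries.

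Myh11 encodes the smooth muscle myosin heavy chain, the motor protein that is the most specific marker of mature smooth muscle (gene ID 17880; chromosome 16, 14194527 to 14292188). Its level was 10.2, 11.3 and 14.3 CPM in CCSP/TGFalpha replicates 1 to 3, and 21.3, 37.1 and 45.4 CPM in CCSP/- replicates 1 to 3. Each CCSP/TGFalpha library lay below each CCSP/- library. The log2 fold change was -1.54 ± 0.28, with an interval from -2.19 to -0.89 (edgeR adjusted p = 0.0196). Without the 2 libraries with skeletal muscle transcripts it was -1.69 (edgeR adjusted p = 0.0161). The call was lost without CCSP/TGFalpha replicate 1 (edgeR adjusted p = 0.082), CCSP/TGFalpha replicate 2 (0.0629), CCSP/- replicate 2 (0.0808) or CCSP/- replicate 3 (0.0873), with the log2 value between -1.50 and -1.30 in these.

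The other members of the myosin system did not pass the test. Myl9 encodes the regulatory light chain whose phosphorylation starts contraction (gene ID 98932; chromosome 2, 156775408 to 156781657). It stood at 21.8, 12.8 and 16.3 CPM in CCSP/TGFalpha lungs and 13.1, 18.8 and 24.7 CPM in CCSP/- lungs. The groups overlapped, and the log2 fold change of -0.15 had an interval from -0.79 to 0.48 (edgeR adjusted p = 0.754). Without both replicates 1 it was -0.59 (edgeR adjusted p = 0.248). Mylk encodes the myosin light chain kinase and, in the same gene, a longer non-muscle form of the kinase (gene ID 107589; chromosome 16, 34745199 to 35002436). Its level was 173, 201 and 252 CPM in CCSP/TGFalpha lungs and 195, 273 and 299 CPM in CCSP/- lungs. These ranges overlapped as well, with a log2 fold change of -0.29, an interval from -0.78 to 0.19 and an edgeR adjusted p of 0.410 (-0.34 without both replicates 1). Mylk overlaps E130310I04Rik, which lay at 3.06 to 5.11 CPM in CCSP/TGFalpha lungs and 5.70 to 6.89 CPM in CCSP/- lungs.

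Tagln encodes transgelin (SM22alpha), an actin-binding protein that appears early in smooth muscle and in activated fibroblasts (gene ID 21345; chromosome 9, 45929628 to 45936058). Its level was 347, 251 and 146 CPM in CCSP/TGFalpha replicates 1 to 3, and 41.3, 68.5 and 75.8 CPM in CCSP/- replicates 1 to 3. The lowest CCSP/TGFalpha library lay above the highest CCSP/- library. The log2 fold change was 2.0 ± 0.34, with an interval from 1.22 to 2.79 (edgeR adjusted p = 0.0157), and without the 2 libraries with skeletal muscle transcripts it was 1.45 (edgeR adjusted p = 0.0399). The call was lost without CCSP/- replicate 2 (edgeR adjusted p = 0.069, log2 fold change 2.08) or CCSP/- replicate 3 (0.0637 and 2.17). Tagln overlaps Pcsk7, which was at 22.3 ± 0.817 CPM in CCSP/TGFalpha lungs and 26.1 ± 3.25 CPM in CCSP/- lungs (SD, n = 3 each).

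The other actin-associated members did not pass the test. Cnn1 encodes calponin 1, which binds actin and damps myosin activity (gene ID 12797; chromosome 9, 22099221 to 22109221). It was at 13, 8.63 and 4.86 CPM in CCSP/TGFalpha lungs and 7.38, 6.23 and 13.8 CPM in CCSP/- lungs. The ranges nearly coincided, and the log2 fold change of -0.05 had an interval from -1.01 to 0.90 (edgeR adjusted p = 0.948). Without both replicates 1 it was -0.58 (edgeR adjusted p = 0.536). Lmod1 encodes leiomodin 1, which nucleates actin filaments in smooth muscle (gene ID 93689; chromosome 1, 135324813 to 135368065). It was at 5.27, 2.67 and 4.56 CPM in CCSP/TGFalpha lungs and 4.81, 3.11 and 5.06 CPM in CCSP/- lungs. Synpo2 encodes synaptopodin 2, also called myopodin, an actin-bundling protein (gene ID 118449; chromosome 3, 123076519 to 123236168). It was at 10.7, 9.37 and 6.87 CPM in CCSP/TGFalpha lungs and 11.8, 7.88 and 13 CPM in CCSP/- lungs. Both genes overlapped between groups, with log2 fold changes of -0.06 (interval -0.86 to 0.75) for Lmod1 and -0.28 (interval -0.89 to 0.33) for Synpo2. The edgeR adjusted p was 0.935 for Lmod1 and 0.537 for Synpo2. Without both replicates 1 the log2 fold change was -0.18 for Lmod1 and -0.37 for Synpo2 (edgeR adjusted p = 0.879 and 0.599).

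Des encodes desmin, the intermediate filament protein of smooth, heart and skeletal muscle and of pericytes (gene ID 13346; chromosome 1, 75360292 to 75368579). Its level was 155, 59.3 and 46.1 CPM in CCSP/TGFalpha replicates 1 to 3, and 69.8, 30.7 and 34.4 CPM in CCSP/- replicates 1 to 3. Replicate 1 was the highest library in each group, as for the skeletal muscle markers, and the groups overlapped. The log2 fold change was 0.95 ± 0.48, with an interval from -0.16 to 2.06 (edgeR adjusted p = 0.248). Without both replicates 1 it was 0.69 (edgeR adjusted p = 0.112). Of the other contractile genes, Tpm2, Ldb3 and Casq2, which skeletal or heart muscle also uses, were singled out after their values were seen. Tpm2 (a tropomyosin) was at 156, 21.2 and 9.96 CPM in CCSP/TGFalpha lungs and 67.1, 5.13 and 6.20 CPM in CCSP/- lungs. Ldb3 (a Z-disc protein) was at 34.6, 3.37 and 2.09 CPM in CCSP/TGFalpha lungs and 40.6, 3.21 and 5.98 CPM in CCSP/- lungs, and Casq2 (calsequestrin 2) at 18.2, 2.38 and 1.21 CPM in CCSP/TGFalpha lungs and 13.4, 2.43 and 4.52 CPM in CCSP/- lungs. Replicate 1 was highest in each group for all 3, and none passed (edgeR adjusted p = 0.530, 0.884 and 0.960, where none had an unadjusted p under 0.05). The part of skeletal muscle RNA in the Des values was not tested. For Acta2, Tagln and Myh11, CCSP/- replicate 1 was the lowest CCSP/- library, while CCSP/TGFalpha replicate 1 was the highest of its group for Acta2 and Tagln and the lowest for Myh11.

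**Figure D2:**
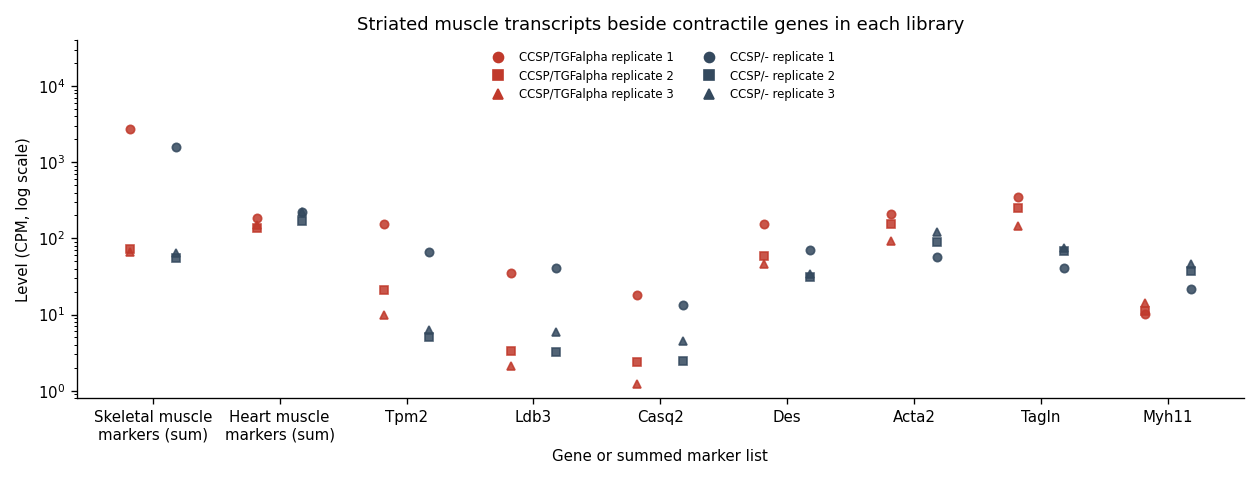
Summed levels of skeletal and heart muscle markers and levels of Tpm2, Ldb3, Casq2, Des, Acta2, Tagln and Myh11 in each library, in CPM on a log scale, with CCSP/TGFalpha libraries on the left of each pair. Replicate 1 of both groups is far above the other libraries for the skeletal muscle markers (2739 and 1570 CPM) and highest in its group for Tpm2, Ldb3, Casq2 and Des.

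**Figure D3:**
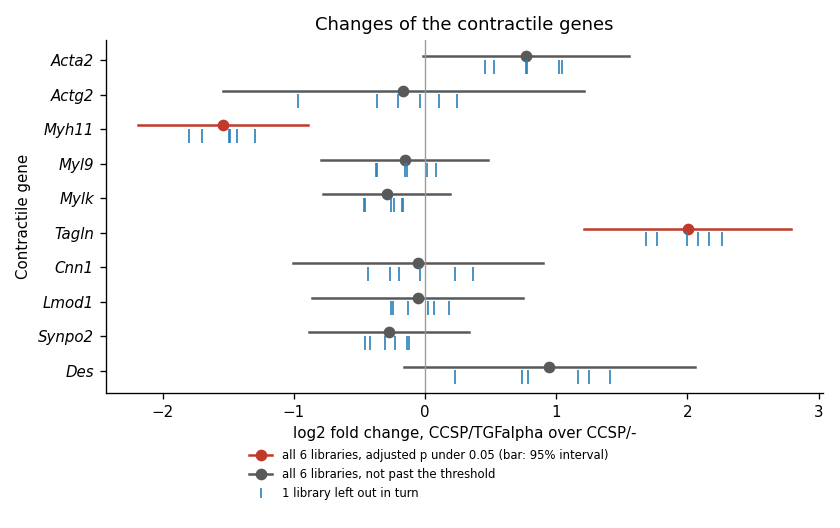
Log2 fold change (CCSP/TGFalpha over CCSP/-) of each contractile gene with its 95% interval over all 6 libraries, and blue ticks for the values with 1 library left out. The intervals of Tagln (1.22 to 2.79) and Myh11 (-2.19 to -0.89) lie away from 0, and the other 8 intervals hold 0.

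The ratio of one contractile gene to another within a library does not depend on library scaling, and these ratios were looked at after the levels were seen and are given as a description. Per kilobase of exon, Tagln stood to Myh11 as 141, 92.4 and 42.3 in CCSP/TGFalpha replicates 1 to 3, and as 8.01, 7.66 and 6.91 in CCSP/- replicates 1 to 3. Acta2 stood to Myh11 as 67.5, 44.1 and 21.1 in CCSP/TGFalpha lungs, and as 8.78, 7.89 and 8.64 in CCSP/- lungs. The CCSP/- libraries kept these 2 ratios within 1.16-fold and 1.11-fold of each other, while their Myh11 levels spanned 2.13-fold. In the CCSP/TGFalpha libraries the same ratios spanned 3.33-fold and 3.20-fold and were all higher. Other ratios to Myh11 varied more among CCSP/- lungs. Cnn1 stood to Myh11 as 3.33, 2.01 and 0.892 in CCSP/TGFalpha lungs and as 0.907, 0.441 and 0.798 in CCSP/- lungs, so that the groups overlapped. Lmod1 stood to Myh11 as 0.865, 0.397 and 0.535 in CCSP/TGFalpha lungs and as 0.378, 0.141 and 0.187 in CCSP/- lungs, without overlap. Among CCSP/- lungs these ratios spanned 2.06-fold for Cnn1 and 2.68-fold for Lmod1. The ratio of Tagln to Acta2 was 2.09, 2.10 and 2.0 in CCSP/TGFalpha lungs and 0.913, 0.971 and 0.799 in CCSP/- lungs. The ratio of Mylk to Myh11 was 13.9, 14.6 and 14.4 in CCSP/TGFalpha lungs and 7.45, 6.02 and 5.37 in CCSP/- lungs. The ratios of Tagln to Acta2 and of Mylk to Myh11 were nearly constant over the CCSP/TGFalpha libraries (within 1.05-fold for both). Among these libraries the levels of Tagln and Acta2 spanned 2.38-fold and 2.28-fold, but those of Mylk and Myh11 only 1.45-fold and 1.40-fold.

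**Figure D4:**
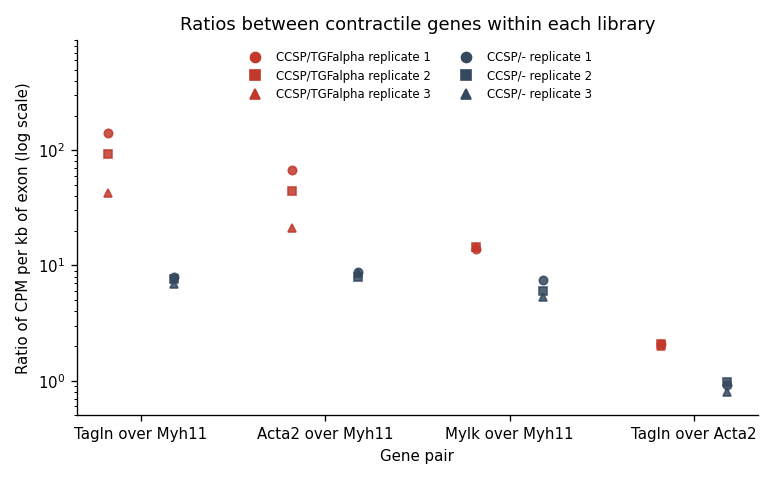
Ratios of CPM per kilobase of exon between pairs of contractile genes in each library, on a log scale, with CCSP/TGFalpha libraries on the left of each pair. The CCSP/- points for Tagln over Myh11 (6.91 to 8.01) and Acta2 over Myh11 (7.89 to 8.78) nearly coincide, and the CCSP/TGFalpha points for Mylk over Myh11 (13.9 to 14.6) and Tagln over Acta2 (2.0 to 2.10) do.

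Levels of different genes can be set side by side only per length. Per kilobase of exon, Tagln led in CCSP/TGFalpha lungs with 155 CPM per kb, followed by Acta2 with 75.0, Des with 28.7, Mylk with 25.8 and Myl9 with 15.0 CPM per kb. In CCSP/- lungs the order was Acta2 with 44.0, Tagln with 38.8, Mylk with 31.6, Myl9 with 16.7 and Des with 14.9 CPM per kb. Within a library, Tagln lay above Acta2 in all 3 CCSP/TGFalpha lungs and below it in all 3 CCSP/- lungs, as the ratios above show. Over libraries, the ranges were 91.3 to 217 CPM per kb for Tagln and 45.6 to 104 for Acta2 in CCSP/TGFalpha lungs, and 25.9 to 47.5 for Tagln and 28.3 to 59.4 for Acta2 in CCSP/- lungs. Des, at 15.2 to 51.2 CPM per kb in CCSP/TGFalpha lungs, overlapped both Acta2 and Mylk, whereas Mylk (21.4 to 31.1) lay wholly above Myl9 (11.3 to 19.3 CPM per kb). The low end was held in both groups by Cnn1, Myh11, Actg2, Lmod1 and Synpo2, with 0.694 to 3.50 CPM per kb in CCSP/TGFalpha lungs and 0.840 to 5.24 CPM per kb in CCSP/- lungs. By group means Myh11 came just after Cnn1 in CCSP/TGFalpha lungs and just before it in CCSP/- lungs. Their ranges overlapped in CCSP/TGFalpha lungs (1.54 to 2.16 CPM per kb for Myh11 and 1.93 to 5.14 for Cnn1), where Myh11 was above Cnn1 in replicate 3.

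Profiles over the 6 libraries were compared by the root mean square distance of log2 CPM after centring each gene on its own mean, over 14254 genes outside the set. The nearest to Myh11 were Colgalt2, which encodes a collagen galactosyltransferase-like protein (distance 0.10), Adra1a, the alpha-1A adrenergic receptor (0.11), and Gnao1, a G protein alpha subunit (0.12). Their log2 fold changes were -1.54 for Colgalt2, -1.68 for Adra1a and -1.53 for Gnao1, which the choice by likeness to Myh11 fixes, so they are a description with no test. The nearest to Acta2 were the cell cycle inhibitor gene Cdkn2b (0.18), the mitochondrial ribosomal gene Mrpl55 (0.19) and Cnn3, which encodes the broadly used calponin 3 (0.21). Their log2 fold changes, likewise set by the choice, were 0.83 for Cdkn2b, 0.53 for Mrpl55 and 0.93 for Cnn3.

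Other genes of the contractile apparatus also had calls in both directions. Of 28 tested, 2 rose and 3 fell, beside 5.03% called higher and 3.29% called lower over all genes. The median log2 fold change was 0.10, with 19 positive and 9 negative values. Smtn, which encodes smoothelin, a protein of contractile smooth muscle, rose to 42.2 ± 4.80 CPM in CCSP/TGFalpha lungs, against 23.0 ± 3.02 CPM in CCSP/- lungs (edgeR adjusted p = 0.0214). Pdlim7, which encodes an adaptor of actin filaments, rose to 30.5 ± 6.82 CPM in CCSP/TGFalpha lungs, against 16.9 ± 1.81 CPM in CCSP/- lungs (edgeR adjusted p = 0.0389). Tpm1, a tropomyosin gene named after its values were seen, was higher in every CCSP/TGFalpha library (485 ± 196 CPM in CCSP/TGFalpha lungs, against 230 ± 63.1 CPM in CCSP/- lungs) without passing (edgeR adjusted p = 0.0667), and passed without both replicates 1 (0.0476). The calls of Smtn and Pdlim7 were lost without the 2 libraries with skeletal muscle transcripts (edgeR adjusted p = 0.104 and 0.135). Of the falls, Synm, which encodes the desmin partner synemin, was at 44.8 ± 11.2 CPM in CCSP/TGFalpha lungs and 106 ± 18.4 CPM in CCSP/- lungs (edgeR adjusted p = 0.0162), and Pgm5, a protein of adherens junctions and muscle attachment sites, was at 18.8 ± 0.967 CPM in CCSP/TGFalpha lungs and 40.0 ± 11 CPM in CCSP/- lungs (edgeR adjusted p = 0.0252). With 1 library left out, Smtn and Synm passed in 2 of 6 fits each, and Pdlim7 and Pgm5 in 1 of 6 each.

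Genes that control contraction mostly did not pass. With edgeR, 1 of 23 tested rose and 0 fell, beside 5.03% called higher and 3.29% called lower over all genes. Of the 23, 5 had an unadjusted edgeR p under 0.05 and a negative fold change, and 1 a positive one. Of all 16089 genes tested, 2059 were lower and 2281 higher at that threshold. The other contractile, control, receptor and SRF lists had 28, 23, 18 and 21 genes tested by edgeR. Over these lists together, falls numbered 18 with DESeq2 and 14 with a replicate block, against 7. Rises numbered 13 and 11 in these fits, against 9. Over all genes the same fits called 1224 and 668 falls, against 530, and 1279 and 802 rises, against 810. The 1 rise among the control genes was Rgs4, an inhibitor of G protein signalling (log2 fold change 1.48 ± 0.25, edgeR adjusted p = 0.0142). It was at 52.3, 90.5 and 57.5 CPM in CCSP/TGFalpha lungs and 18.9, 24.6 and 28.4 CPM in CCSP/- lungs. The call of Rgs4 was lost without CCSP/- replicate 2 or 3 (edgeR adjusted p = 0.0687 and 0.0543).

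The factors that drive or oppose the contractile program did not all shift one way. Of 21 tested, 4 rose and 3 fell, beside 5.03% called higher and 3.29% called lower over all genes. The median log2 fold change was -0.49, with 7 positive and 14 negative values. At an unadjusted edgeR p under 0.05, 5 were higher and 9 lower, beside 2281 higher and 2059 lower of all 16089 genes tested. Srf was at 24.8 ± 5.49 CPM in CCSP/TGFalpha lungs and 27.5 ± 6.17 CPM in CCSP/- lungs, and its muscle partner Myocd was at 0.936 ± 0.35 CPM in CCSP/TGFalpha lungs and 1.40 ± 0.609 CPM in CCSP/- lungs (edgeR adjusted p = 0.706 and 0.515). Tbx18, a factor of mural and mesothelial progenitors, rose to 7.30 ± 2.33 CPM in CCSP/TGFalpha lungs, against 0.728 ± 0.0930 CPM in CCSP/- lungs (edgeR adjusted p = 0.00259). Fhl2, an SRF cofactor and target, rose to 23.9 ± 8.58 CPM in CCSP/TGFalpha lungs, against 2.66 ± 0.858 CPM in CCSP/- lungs (edgeR adjusted p = 0.00268). Ankrd1, a muscle ankyrin repeat protein and known target of YAP, fell to 8.09 ± 0.897 CPM in CCSP/TGFalpha lungs, against 31.6 ± 5.12 CPM in CCSP/- lungs (edgeR adjusted p = 0.00158). Klf4, a factor that represses smooth muscle genes, fell to 40.3 ± 11.9 CPM in CCSP/TGFalpha lungs, against 120 ± 21.8 CPM in CCSP/- lungs (edgeR adjusted p = 0.00982). The calls of Tbx18, Fhl2 and Ankrd1 held in each of the 6 fits with 1 library left out, and that of Klf4 in 5. The other calls, named after their values were seen, were rises of Gata6 (0.78) and Ccn2 (0.97) and a fall of Ccn1 (-0.74 on the log2 scale), each of which passed in 1 of those 6 fits.

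**Figure D5:**
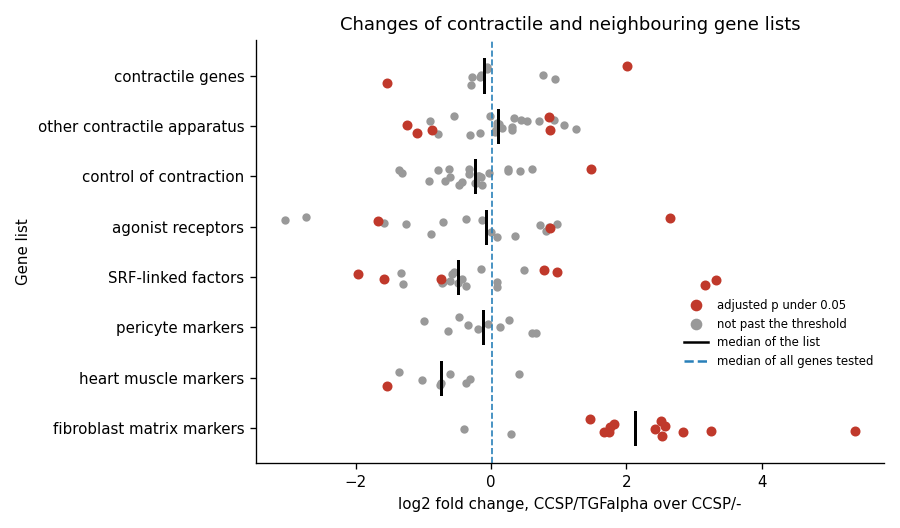
Log2 fold change (CCSP/TGFalpha over CCSP/-) of each tested gene, in rows by list, red where the edgeR adjusted p is under 0.05, with a black bar at the median of each list and a dashed line at the median of all genes tested (0.01). The contractile genes centre on -0.11 with Tagln and Myh11 on opposite sides, while the fibroblast matrix markers centre on 2.12.

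Markers of other cells that express contractile genes were measured in the same fit. Over all genes 5.03% were called higher and 3.29% lower. At an unadjusted edgeR p under 0.05, 2281 of 16089 genes were higher and 2059 lower. Of 14 fibroblast matrix markers 12 rose, with a median of 2.12, led by the matrix proteins tenascin C (Tnc, 5.38 on the log2 scale) and fibronectin (Fn1, 3.25). The 2 that did not pass were Postn (-0.40, edgeR adjusted p = 0.248) and Pdgfra (0.29, edgeR adjusted p = 0.442). The 14 markers summed to 8176 to 13517 CPM in CCSP/TGFalpha lungs and 2169 to 2306 CPM in CCSP/- lungs. None of the 10 pericyte markers passed with edgeR (Notch3 had the smallest adjusted p, 0.111, and 1 marker had an unadjusted p under 0.05), and they summed to 163 to 226 CPM in CCSP/TGFalpha lungs and 164 to 279 CPM in CCSP/- lungs. The 10 heart muscle markers, which the muscle sleeve of the pulmonary veins also expresses, summed to 138 to 187 CPM in CCSP/TGFalpha lungs and 169 to 223 CPM in CCSP/- lungs. The heart actin gene Actc1 was the only one of 9 tested heart markers to pass, with 16.2 ± 6.62 CPM in CCSP/TGFalpha lungs and 47.2 ± 13.4 CPM in CCSP/- lungs (edgeR adjusted p = 0.0350, and 0.0612 without both replicates 1). Of the 9, 8 had a negative log2 fold change, with a median of -0.74. At an unadjusted edgeR p under 0.05, 0 of the 9 were higher and 3 lower. The 8 cartilage markers, which would mark large airways, summed to at most 0.595 CPM in any library, and 4 of them were at 0 in every library. The 8 mesothelial markers found summed to 587 to 800 CPM in CCSP/TGFalpha lungs and 391.6 to 700 CPM in CCSP/- lungs, with a rise of the mesothelial factor Wt1 (3.86) and a fall of the keratin Krt19 (-0.64 on the log2 scale). Wt1 passed in 3 and Krt19 in 1 of the 6 fits with 1 library left out, and neither passed without both replicates 1 (edgeR adjusted p = 0.0732 and 0.0566). Wt1 was at 144, 131 and 84.9 CPM in CCSP/TGFalpha lungs and 11.2, 12.7 and 0.730 CPM in CCSP/- lungs, where replicate 3 was far below the others. The same library was low for the mesothelial gene Upk3b, singled out after its values were seen, at 139, 68.0 and 85.8 CPM in CCSP/TGFalpha lungs and 83.1, 83.6 and 6.57 CPM in CCSP/- lungs. Of 10 lung markers, the club cell protein Scgb1a1 (-1.32) and the endothelial adhesion protein Pecam1 (-1.17 on the log2 scale) fell. Scgb1a1 passed in 1 and Pecam1 in 2 of the 6 fits with 1 library left out, and neither passed without both replicates 1 (edgeR adjusted p = 0.185 and 0.0614). The part of these cell types in the Tagln and Myh11 results was not tested.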

How the data were processed

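The authors deposited 1 table of raw counts per gene, with whole numbers, no normalization and 1 column per sample, matched to samples by their description labels. Per the submitters' processing notes, bcl2fastq, CASAVA 1.8, TopHat and DESeq were used with build mm10. No source used here gives the read counter, strand setting or annotation, so overlapping genes cannot be separated by strand. Symbols and places came from RefSeq (GRCm38.p6), which left 85 of 24061 rows unnamed, and exon lengths from GENCODE M21.

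Counts were scaled by TMM, filtered by group and fitted on group alone (edgeR 4.0.16, R 4.3.3). Standard errors were derived from the coefficient and the F statistic. When counts of 15905 genes were simulated for CCSP/TGFalpha against CCSP/-, the test found 45% of the 2-fold changes and 88% of the 4-fold changes, and 8.28% of its calls were false. In that simulation 100 genes changed at each fold size, and the spread of a gene followed its level alone. No simulated library stood apart as both replicates 1 did, so these rates hold for that setting. Libraries of a group differed beyond counting noise (chi-square per degree of freedom at least 46.6). DESeq2 1.42.0, limma 3.58.1 and other settings were alternatives. Leaving out both replicates 1 was chosen after seeing the data.

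The members and lists were chosen with earlier results of these data known. The genes named are the 10 members, the 2 largest called rises and falls of each list (or its smallest adjusted p), and the 3 nearest profiles to Acta2 and to Myh11. One of the contractile apparatus genes that fell is not reported here.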

Additional observations from a re-analysis of the deposited data

How the results depend on the processing

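Under the 9 other settings that kept all 6 libraries, Tagln stayed a rise and Myh11 a fall past the threshold. The count of contractile genes that rose was 2 with a replicate block, where Des passed (log2 fold change 0.84, edgeR adjusted p = 0.0352). No label states a pairing of samples by number, and the counts did not settle it. Deviations of same-numbered libraries correlated at 0.42, -0.05 and 0.22 over genes. Both libraries numbered 1 correlated best with each other, but not every library correlated best with its own number. With 1 library left out, 0 to 1 contractile genes rose and 0 to 1 fell by edgeR, with 1 to 3 higher and 1 lower at an unadjusted p under 0.05. At that unadjusted threshold 1608 to 2201 genes were higher and 1455 to 2099 lower over all genes. Over all genes, 204 to 606 rose and 34 to 482 fell in those fits, against 810 and 530. DESeq2 called 1279 higher and 1224 lower, and 307 rose and 166 fell without both replicates 1. With 1 library left out, signs changed among log2 fold changes that did not pass, for Cnn1 (-0.44 to 0.37), Actg2 (-0.97 to 0.24), Lmod1 (-0.26 to 0.18), Myl9 (-0.37 to 0.0827), Tpm2 (-0.75 to 3.45), Ldb3 (-2.60 to 1.53), Casq2 (-1.91 to 1.06) and the skeletal muscle marker Actn3 (-2.43 to 7.88). Casq2 also changed sign with limma-voom (-0.54), a replicate block (-0.41) and without both replicates 1 (-0.95), as Mrpl55 did without both (-0.0948). The cause of these changes was not tested. The other pathway genes were those of the contractile, control, receptor and SRF lists (28, 23, 18 and 21 tested with all 6 libraries). With 1 library left out, 2 to 8 of them rose and 1 to 11 fell, against 9 and 7. Counting error is largest, relative to the level, for genes with few counts, such as Actg2 with 17 to 95 per library.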

Other observations

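Receptors through which agonists make smooth muscle contract or relax were the last list examined. Among 18 tested there were 2 rises and 1 fall, with a median log2 fold change of -0.07. Over all genes 5.03% were called higher and 3.29% lower. At an unadjusted edgeR p under 0.05, 5 receptors were higher and 6 lower, beside 2281 and 2059 of all 16089 genes. The groups did not overlap for 5 higher and 6 lower receptors, a pattern that held for 17.7% and 15.5% of all genes. Ptger3, which encodes the prostaglandin E2 receptor EP3, rose to 13.7, 11 and 6.45 CPM in CCSP/TGFalpha lungs, against 2.73, 1.05 and 1.14 CPM in CCSP/- lungs (log2 fold change 2.65 ± 0.46, edgeR adjusted p = 0.0159), with no overlap between groups. F2r, the thrombin receptor gene, rose to 608 ± 54.2 CPM in CCSP/TGFalpha lungs, against 332 ± 85.2 CPM in CCSP/- lungs (SD, n = 3 each, edgeR adjusted p = 0.0463). Adra1a, the alpha-1A adrenergic receptor gene with a profile close to that of Myh11, was at 3.52, 4.68 and 5.69 CPM in CCSP/TGFalpha lungs and 8.42, 15.4 and 20.6 CPM in CCSP/- lungs. With 1 library left out, Ptger3 passed in 3 of 6 fits, Adra1a in 2 and F2r in none by edgeR (adjusted p between 0.0701 and 0.132). Without both replicates 1, Ptger3 (0.0172) and Adra1a (0.0219) passed and F2r did not (0.128).

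None of the 6 non-muscle myosin genes passed with edgeR, beside 8.33% called over all genes, and none had an unadjusted p under 0.05. Myh10, the non-muscle myosin heavy chain IIB with the smallest adjusted p among them (0.302), was at 178 ± 30.1 CPM in CCSP/TGFalpha lungs and 130 ± 41.2 CPM in CCSP/- lungs (SD, n = 3 each).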
